A study of Mus musculus with 4 samples.

Results

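The comparison described here is that of culture time alone in PDVC57, a mouse keratinocyte line that is transformed: a non stimulated (NS) culture of 24 h against an NS culture of 6 h, both in low-serum medium with no cytokine added. The series holds 4 arrays, 1 per condition, the other two being cultures of the same line that received mouse oncostatin M (OSM, a cytokine of the IL-6 family) at 10 ng/ml for 6 h or 24 h. A gene entered the comparison when the brightest of its probe sets, each paired with this gene alone, lay above 20 on either NS array. The value of 20 is the lowest in the deposited intensities and is called the floor. Of 22180 genes, 8198 (37.0%) met this rule, 7824 of them above the floor on both NS arrays, 137 on the 6 h array alone and 237 on the 24 h array alone, while 13982 stood at the floor on both. With 1 array a side there is no replicate, no error and no test, each fold compares 1 array with 1 array, and the time of culture cannot be told apart from any other difference between these arrays. The labels do not say whether the 4 arrays came from separate cultures or on how many days they were made, and a line that is transformed and alone in the series stands for itself only. No array of an earlier time was analysed here, so that 6 h is the reference for every ratio.

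Keratinocytes are the cells that build the epidermis and also its first source of inflammatory signals. They store IL-1α, and when stressed or stimulated they secrete chemokines of the CXC family, which attract neutrophils, and colony-stimulating factors, which prolong the life of those neutrophils and stimulate other myeloid cells. Many of these genes are induced through the transcription factors NF-κB and AP-1, and NF-κB in turn induces genes of its own inhibitors. Culture with little serum, on the other hand, removes growth factors and lipids, and cells in such medium usually adapt their lipid synthesis, ribosome production and cell division.

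The arrays carried the profile of the labelled cells. All 13 keratinocyte and epithelial markers with a probe set of their own were above the floor, with summed intensities of 4266 on the NS 6 h array and 4510 on the NS 24 h array, whereas of 36 markers of endothelial cells, melanocytes, immune cells and fibroblasts only Fbln1, a matrix protein of fibroblasts, was above it (52.5 on NS 6 h and 55.1 on NS 24 h). RNA from these arrays is bulk RNA, in which fewer cells of a kind and less RNA per cell cannot be told apart. Osmr, a chain of the OSM receptor and a gene that OSM itself induces, had 21.7 and 22.7 on the NS arrays and 121 and 135 on the OSM arrays. The NS arrays were thus low for this gene at both times. Per array, between 72.5% and 73.0% of the 41345 probe sets stood at the floor, and the highest intensity was between 4505 and 4582.

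Most genes had nearly the same intensity at both times. The median log2 ratio of NS 24 h over NS 6 h was 0.02 with an SD of 0.26 across the 8198 genes, 4370 genes were above 0 and 3827 below, and 7909 genes (96.5%) lay within 1.5-fold. Beyond that range the directions were unequal. At 2-fold or more, the threshold used throughout, 60 genes (0.732% of those compared) were higher after 24 h and 4 genes (0.0488%) were lower. At 1.5-fold the counts were 235 (2.87%) and 54 (0.659%), and at 3-fold they were 8 (0.0976%) and 0 (0%). The last gene inside the threshold was Ddit4, an inhibitor of mTORC1 signalling, with 56.2 at 6 h and 113 at 24 h (2.02-fold), and the first outside it was Csf1, the macrophage colony-stimulating factor, with 68.9 at 6 h and 137 at 24 h (1.99-fold). Of the 60 higher genes, 11 were at the floor on the 6 h array, so that their folds are lower bounds and are written as at least so many fold. With those, 32 of the 60 lay under 40 at 6 h, and with the floor raised to 40 the count of higher genes was 38 instead of 60.

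**Figure D1:**
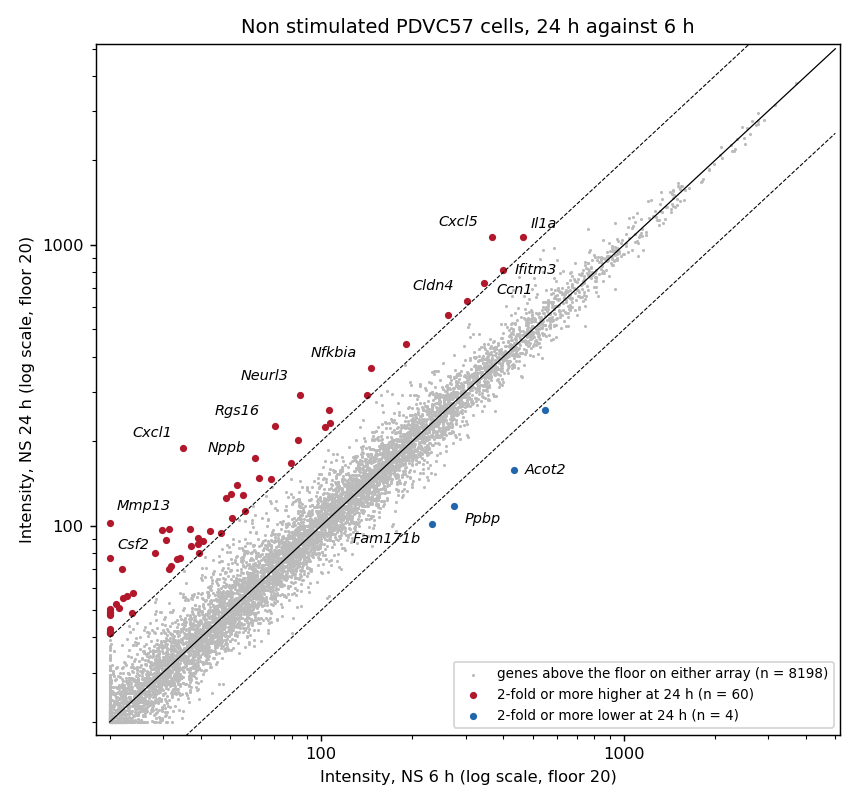
Intensity of each gene on the NS 24 h array (vertical, log scale) against the NS 6 h array (horizontal, log scale), for the 8198 genes above the floor of 20 on either. The solid line marks equal intensity and the dashed lines 2-fold; the 60 genes above the upper dashed line are red and the 4 below the lower one blue, with Cxcl1 the farthest above, points on the left edge at the floor having only a lower bound, and Acot2 the farthest below.

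The chemokines of neutrophils were among the genes farthest above the line. Cxcl1, a ligand of the neutrophil receptor Cxcr2, had 34.9 at 6 h and 189.8 at 24 h, the largest ratio among the genes above the floor on both arrays (5.43-fold, log2 2.44), and 68.5 and 120.1 on the OSM 6 h and 24 h arrays. Its neighbour on chromosome 5, Cxcl2, had 22.0 at 6 h and 70.3 at 24 h (3.19-fold) and 25.7 and 56.5 with OSM, and with a floor of 40 its log2 ratio was 0.81. Cxcl5, a further Cxcr2 ligand, had 368 at 6 h and 1067 at 24 h (2.90-fold) and 523 and 774 with OSM. For all of these ligands the NS 6 h array was the lowest of the 4 and the NS 24 h array the highest. Cxcl3, of the same group, was at the floor at 6 h and at 37.1 at 24 h (at least 1.86-fold). Cxcl16, a chemokine anchored in the membrane, had 539.8 at 6 h and 962 at 24 h (1.78-fold).

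A single chemokine went the other way. Ppbp, also called pro-platelet basic protein and the precursor of the Cxcr2 ligand Cxcl7, had 275 at 6 h and 117 at 24 h without cytokine and 319 and 114 with OSM, which made it the gene with the lowest but one NS ratio of all (2.35-fold lower at 24 h). In both pairs the 24 h array was the lower one. Of the 20 chemokines listed, 6 were above the floor on either NS array, 3 of them 2-fold or more higher where 0.732% of all genes were, 1 lower, and 14 at the floor on both, among them Ccl2, Ccl20, Cxcl10 and Cx3cl1. The median log2 ratio of the 6 was 1.22, against 0.02 over all genes. With a floor of 40 that median was 0.82 and 2 of the 6, Cxcl1 and Cxcl5, were 2-fold higher. Cxcl3 is among the 6 through the NS 24 h array alone and could only be higher.

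Cytokines and colony-stimulating factors followed the chemokines. Of 27 listed genes 10 were above the floor, 7 of them 2-fold or more higher after 24 h where 0.732% of all genes were. At least 1.5-fold higher were 9, where 2.87% of all genes were, and 0 were lower. The median log2 ratio of the 10 was 1.19 (0.66 with a floor of 40). With that floor 2 of the 10, Il1a and Il23a, were 2-fold higher. Csf2, Csf3, Tslp and Il1f6, which encodes IL-36α, were at the floor at 6 h and entered through the 24 h array alone. They could only be counted as higher, and the counts and medians include them. Of all 8198 genes compared, 237 entered in this way. Those at the floor on both NS arrays included the inflammatory cytokines Il1b, Il6, Il18, Il33 and Tnf. Csf2, encoding GM-CSF, was at the floor on every array except NS 24 h, where it read 76.7 (at least 3.83-fold), and a further probe set assigned to Csf2 was at the floor on all 4. Csf3, encoding G-CSF, was at the floor on both 6 h arrays and read 41.9 at 24 h without and 72.2 with OSM. On these arrays GM-CSF was thus above the floor in the 24 h culture without OSM and not in that with OSM, while G-CSF was above it in both.

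Il1a, the IL-1 form that keratinocytes hold in store, had 465 at 6 h and 1069.7 at 24 h (2.30-fold) and 609.6 and 942 with OSM. Il23a, the subunit specific to IL-23, had 30.8 at 6 h and 89.1 at 24 h (2.89-fold) and 40.6 and 80.0 with OSM. Both had the same order of arrays as Cxcl1, with the OSM arrays lying between the NS arrays. Lif, a cytokine of the IL-6 family, read 21.0 at 6 h and 52.8 at 24 h (2.51-fold) and 23 and 39.6 with OSM, and Tslp, which acts on dendritic cells and is known from allergic skin, was at the floor at 6 h and at 48.9 at 24 h (at least 2.44-fold) against 20 and 22.8 with OSM. Il24, of the IL-20 family, read 33.5 at 6 h and 76.2 at 24 h (2.28-fold) and 49.7 and 128 with OSM, and was therefore highest on the OSM 24 h array. The folds of Lif and Tslp rest on 6 h values at or next to the floor, and with a floor of 40 their log2 ratios were 0.40 and 0.29, with 0.94 for Csf2, 0.07 for Csf3 and 0.93 for Il24.

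**Figure D2:**
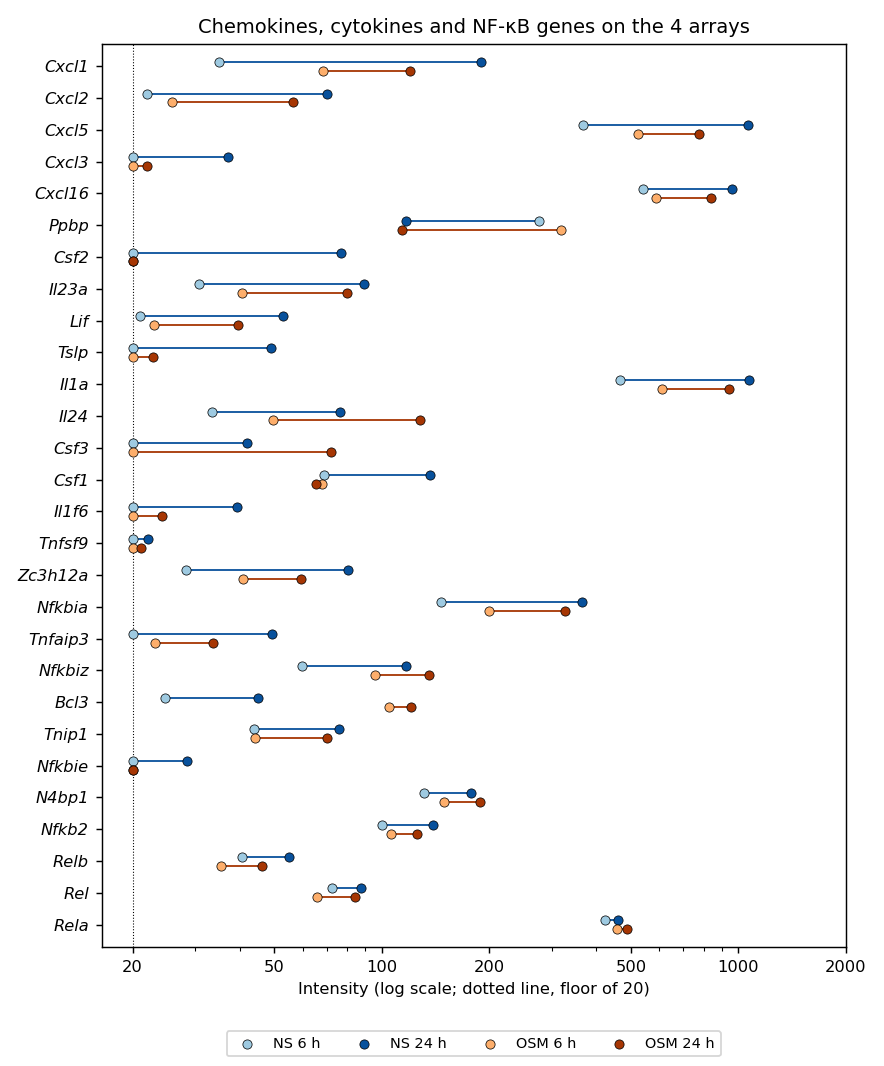
Intensities (horizontal, log scale) of the chemokines, cytokines and NF-κB subunits above the floor on either NS array and of the 8 NF-κB feedback genes with the highest ratios, with 1 point per array. Blue points joined by a line are NS 6 h (light) and NS 24 h (dark), orange points OSM 6 h and OSM 24 h; most dark blue points lie to the right of their light blue partner, Ppbp lies reversed, and Csf2 leaves the floor on NS 24 h alone.

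Some genes of NF-κB feedback were higher after 24 h, 6 of 15 by at least 1.5-fold, where 2.87% of all genes were. Nfkbia, the inhibitor that holds NF-κB in the cytoplasm, had 146 at 6 h and 365 at 24 h (2.49-fold) and 200.2 and 327 with OSM. Zc3h12a, an endonuclease that degrades mRNAs of cytokines, had 28.2 at 6 h and 80.2 at 24 h (2.84-fold) and 40.8 and 59.4 with OSM. Tnfaip3, a ubiquitin-editing enzyme that ends NF-κB signalling, was at the floor at 6 h and at 49.2 at 24 h (at least 2.46-fold), with 23.1 and 33.6 on the OSM arrays, and its log2 ratio was 0.30 with a floor of 40. In each of these genes the NS 24 h value was the highest of the 4. Of the 15 feedback genes above the floor, 3 were 2-fold higher, where 0.732% of all genes were, and 0 were 1.5-fold lower. The median log2 ratio of the 15 was 0.43 (0.17 with a floor of 40), with Nfkbib at 0.03, Traf2 at -0.00 and Birc2 at -0.18. The others past 1.5-fold were Nfkbiz, a nuclear IκB protein (59.6 to 117), Bcl3, another of them (24.6 to 45.1, against 105 and 121 with OSM), and Tnip1, a partner of the Tnfaip3 protein (43.9 to 75.7). The 4 measured subunits had log2 ratios of 0.48 for Nfkb2, 0.44 for Relb, 0.27 for Rel and 0.12 for Rela, all above 0 and all within 1.5-fold, with a median of 0.35. Of 26 other listed targets of NF-κB 16 were above the floor, with a median of 0.29. Of these 14 were above 0, where 4370 of all 8198 genes were, 2 at least 1.5-fold higher and 0 as much lower. Past 2-fold was 1, the tissue factor gene F3, which was at the floor at 6 h.

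Of the kinases that act upstream, Ikbke, an IκB kinase homologue active in innate sensing, had 52.8 at 6 h and 139 at 24 h (2.64-fold) and 56.7 and 94.6 with OSM. Its relatives were closer to equal, with log2 ratios of 0.30 for Tbk1 and 0.22 for Ikbkb. Receptor chains that lead to NF-κB had smaller ratios, Il1r1, the receptor of IL-1, with 37.7 to 56.1, and Il1rap, its partner chain, with 28.7 to 43.3. On the list of IL-1, TNF and Toll receptor signalling, 1 of 15 genes was 2-fold higher, where 0.732% of all genes were, and the median was 0.22.

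The promoters shown here belong to 4 of the 60 genes that hold a match to an NF-κB type of motif, and were chosen for that match. Each is the RefSeq window of 300 bases, 250 before the transcription start and 50 after it, on the GRCm38.p6 build, written 5′ to 3′ on the gene's own strand. Capitals mark matches to an NF-κB type of motif, searched on both strands and spelled GGG, any pair of bases, TT, any base and CC. The windows lie at chr5:90890995-90891294, plus strand for Cxcl1, at chr5:90903649-90903948, plus strand for Cxcl2, at chr12:55492598-55492897, minus strand for Nfkbia and at chr1:36273376-36273675, minus strand for Neurl3, an E3 ubiquitin ligase gene described further on.
Cxcl1: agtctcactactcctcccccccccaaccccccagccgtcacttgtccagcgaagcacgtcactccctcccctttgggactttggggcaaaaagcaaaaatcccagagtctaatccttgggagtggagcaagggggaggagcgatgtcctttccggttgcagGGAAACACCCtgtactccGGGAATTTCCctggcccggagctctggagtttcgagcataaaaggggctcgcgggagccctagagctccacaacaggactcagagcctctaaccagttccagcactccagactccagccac
Cxcl2: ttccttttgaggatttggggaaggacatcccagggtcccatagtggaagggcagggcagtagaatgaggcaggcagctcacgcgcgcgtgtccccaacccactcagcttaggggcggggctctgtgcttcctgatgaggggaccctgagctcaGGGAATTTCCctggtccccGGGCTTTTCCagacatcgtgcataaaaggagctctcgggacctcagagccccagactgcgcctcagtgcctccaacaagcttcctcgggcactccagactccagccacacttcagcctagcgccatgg
Nfkbia: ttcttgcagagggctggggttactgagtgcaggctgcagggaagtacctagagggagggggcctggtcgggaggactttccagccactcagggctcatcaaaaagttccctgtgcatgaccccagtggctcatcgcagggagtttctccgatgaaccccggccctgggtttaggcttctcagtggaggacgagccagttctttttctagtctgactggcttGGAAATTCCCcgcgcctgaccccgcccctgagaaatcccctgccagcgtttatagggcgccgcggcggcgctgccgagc
Neurl3: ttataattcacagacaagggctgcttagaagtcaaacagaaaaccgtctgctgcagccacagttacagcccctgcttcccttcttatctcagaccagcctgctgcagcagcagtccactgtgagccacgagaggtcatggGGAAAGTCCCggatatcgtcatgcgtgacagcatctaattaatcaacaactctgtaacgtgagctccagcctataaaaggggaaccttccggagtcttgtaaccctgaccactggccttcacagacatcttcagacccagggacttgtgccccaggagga
The matches begin 89 and 71 bases before the start in Cxcl1, 97 and 78 before it in Cxcl2, 29 before it in Nfkbia and 110 before it in Neurl3. The 10 letters GGGAATTTCC occur in both chemokine promoters, and the windows of both chemokines hold a pair of matches each. Of the 60 higher genes, 46 had a promoter in the table, and 6 of these (13%) held the motif, the others being Tnfaip3 and Tmem176b, against 6.29% of the 6601 compared genes with a promoter and 5.48% of all 27025 genes. It stood in 20 of the 178 promoters of genes at least 1.5-fold higher (11.2%) and in 0 of the 39 of genes as much lower.

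TGANTCA, an AP-1 type of motif that reads the same on both strands, was present in 13 of the 46 promoters (28.3%), against 5.95% of the compared genes and 8.97% of all genes. At 1.5-fold it stood in 25 of 178 promoters of higher genes (14%) and in 2 of 39 of lower genes (5.13%). It is shown in capitals for Mmp13, at chr9:7272264-7272563, plus strand, and F3, at chr3:121723287-121723586, plus strand, since their values, given next, left the floor at 24 h.
Mmp13: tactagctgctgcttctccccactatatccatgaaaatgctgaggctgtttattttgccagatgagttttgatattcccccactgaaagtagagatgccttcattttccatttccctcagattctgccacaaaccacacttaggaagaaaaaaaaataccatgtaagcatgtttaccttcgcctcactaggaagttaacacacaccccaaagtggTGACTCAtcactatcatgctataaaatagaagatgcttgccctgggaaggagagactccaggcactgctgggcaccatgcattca
F3: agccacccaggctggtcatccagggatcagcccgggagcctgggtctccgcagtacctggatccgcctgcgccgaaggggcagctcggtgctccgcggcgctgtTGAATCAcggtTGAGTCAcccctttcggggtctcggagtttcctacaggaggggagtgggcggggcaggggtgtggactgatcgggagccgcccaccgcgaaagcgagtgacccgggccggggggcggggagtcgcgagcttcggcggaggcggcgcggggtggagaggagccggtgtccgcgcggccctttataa
The match begins 35 bases before the start of Mmp13, and in F3 a pair of matches begins 146 and 135 bases before it. Matches also stood in Il1a, Lif, Ikbke, Ifitm3, Mmp10 and Tnfaip3, and Cldn4 held a pair of them. CACGTG, an E-box on both strands, was present in 3 of the 46 (6.52%) against 12.8% of compared genes and 8.09% of all genes, and at 1.5-fold in 14 of 178 of the higher (7.87%) and 7 of 39 of the lower genes (17.9%). None of the 3 patterns can lie inside another. A match describes the letters of a window and says nothing of binding in these cells.

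Genes of matrix breakdown and coagulation came next. Mmp13, the collagenase of wound keratinocytes and skin tumours, was at the floor at 6 h and at 103 at 24 h (at least 5.13-fold, log2 2.36), with 26.4 and 129 on the OSM arrays. The NS ratio is a bound, while both OSM arrays were above the floor and gave a log2 ratio of 2.28. With a floor of 40 the NS log2 ratio was 1.36. Mmp10, or stromelysin 2, was at the floor at 6 h and read 42.1 at 24 h (at least 2.10-fold, log2 0.07 with a floor of 40). F3, tissue factor, which starts coagulation, went from the floor to 50.5 (at least 2.52-fold, log2 0.34 with a floor of 40) and had 21.6 and 46.8 with OSM. Plat, tissue plasminogen activator, had 84.0 at 6 h and 202 at 24 h (2.40-fold), and Plaur, the urokinase receptor, had 131 at 6 h and 203 at 24 h (1.55-fold). Urokinase itself, Plau, was closer to equal (428 to 527, log2 0.30). Of 6 genes of plasminogen activation above the floor 2, Plat and F3, were 2-fold higher, where 0.732% of all genes were (median 0.47). Of 8 matrix proteases and inhibitors 2, Mmp13 and Mmp10, were so (median 0.30). F3, Mmp13 and Mmp10 entered these lists through the NS 24 h array alone and could only be counted as higher. The matrix protein genes Thbs2, a thrombospondin (79.5 to 168), and Ltbp2, which binds microfibrils (21.4 to 51.0, log2 0.35 with a floor of 40), were past 2-fold too.

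Targets of YAP, a coactivator that responds to cell shape and contact, were split. Ankrd1, a nuclear ankyrin repeat protein, had 262 at 6 h and 564 at 24 h (2.16-fold) and 308 and 493 with OSM. Ccn1, a matricellular protein, had 345 at 6 h and 732 at 24 h (2.12-fold) and 358 and 511 with OSM. Its relative Ccn2 had 103 at 6 h and 170.3 at 24 h (1.65-fold) and 113 and 112 with OSM, and thrombospondin 1, Thbs1, had 589 at 6 h and 975 at 24 h (1.66-fold) and 382 and 390.3 with OSM. Ccn2 and Thbs1 therefore differed between the NS arrays and hardly between the OSM arrays. The other targets, among them Amotl2 (log2 0.02), Ptpn14 (0.01) and Ajuba (-0.11), lay within 1.5-fold. Of 17 targets 3 were 2-fold higher, where 0.732% of all genes were, and the median was 0.16. F3, at the floor at 6 h, is counted among the 3.

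Epithelial genes at large differed little, with a few exceptions. Grhl3, a transcription factor of epidermal barrier formation, had 22.1 at 6 h and 55.5 at 24 h (2.51-fold, log2 0.47 with a floor of 40), and Cldn4, a claudin of tight junctions, had 303 at 6 h and 630.2 at 24 h (2.08-fold) and 316 and 603 with OSM. Ehf, an epithelial ETS factor, had 50.9 at 6 h and 106 at 24 h (2.09-fold). Around them the genes of late differentiation were mostly not measured above the floor, 30 of 37 standing at it on both NS arrays. Of 18 junction genes above the floor Cldn4 alone passed 1.5-fold (median 0.27), where 2.87% of all genes were as much higher. The 10 basal keratinocyte genes all lay within 1.5-fold (median 0.12), Trp63, the master regulator of stratified epithelium, reading 68.9 to 71.1 and Krt14 218 to 273. Krt6a, a keratin of wounded and activated epidermis, was lower at 24 h, from 223 to 149 (1.5-fold lower), while it had 488 and 545 on the OSM arrays. Krt17, which usually accompanies it, was 174 to 239.

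**Figure D3:**
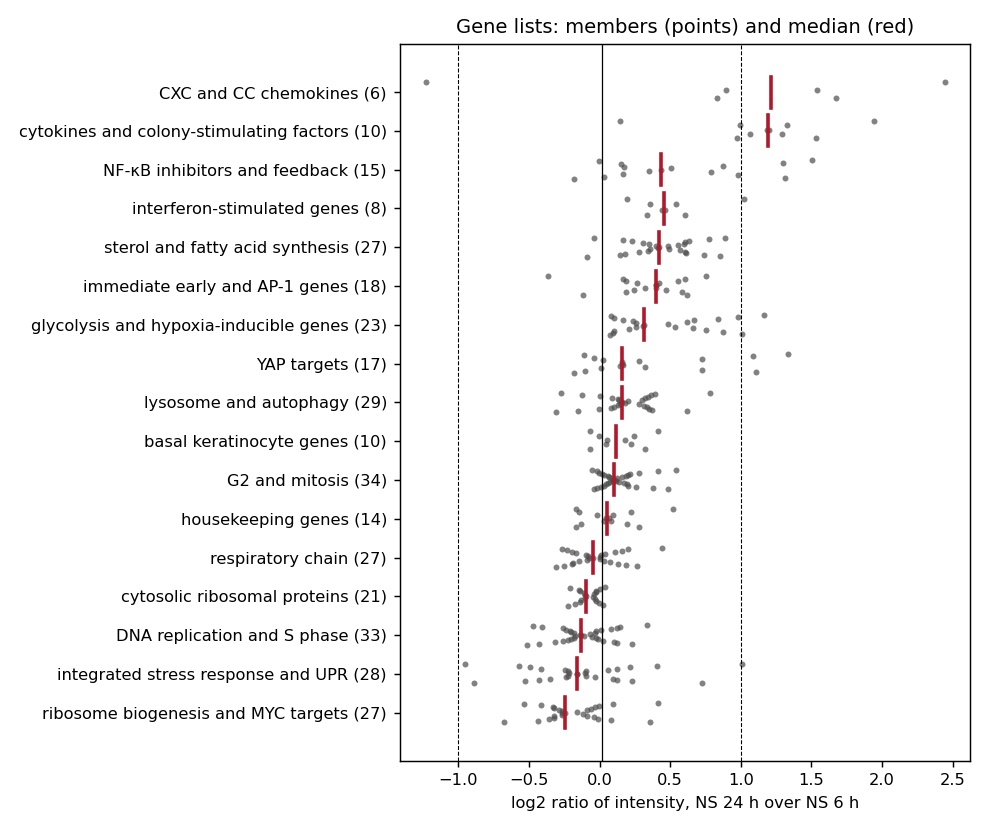
Log2 ratio of NS 24 h over NS 6 h for members of 17 gene lists above the floor, 1 grey point per gene, with each list's median as a red bar and the number of members in brackets. The solid line is the median of all 8198 genes and the dashed lines are 2-fold; chemokines and cytokines have medians of 1.22 and 1.19, and ribosome biogenesis has the lowest at -0.24.

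Metabolic genes had smaller ratios, but many of them on the same side. Of 23 genes of glycolysis and the response to hypoxia, all 23 were above 0, 9 were at least 1.5-fold and 2 at least 2-fold higher, and the median was 0.32. Egln3, at the floor at 6 h and at 36.7 at 24 h, is counted among the 23 and the 9. It entered through the NS 24 h array alone and could only be higher, and with a floor of 40 its log2 ratio was 0. Among all 8198 genes, 4370 were above 0, 2.87% at least 1.5-fold and 0.732% at least 2-fold higher. Aldoc, an aldolase, had 31.4 at 6 h and 70.3 at 24 h (2.24-fold, log2 0.81 with a floor of 40), P4ha2, a prolyl hydroxylase of collagen, 35.1 at 6 h and 69.2 at 24 h (1.97-fold), and Slc2a1, the glucose transporter, 428 at 6 h and 657 at 24 h (1.53-fold). The glycolytic enzymes Pfkl (159.9 to 254) and Pfkp (66.9 to 106), subunits of phosphofructokinase, were past 1.5-fold too, while Pgk1 (0.08), Gapdh (0.10) and Pkm (0.11) had log2 ratios closer to the median of all genes. The 27 genes of sterol and fatty acid synthesis had a median of 0.42, 25 were above 0 and 9 past 1.5-fold (2.87% of all genes were), with none past 2-fold. Among them were Pmvk (56.0 to 104) and Mvd (67.6 to 122), enzymes of the mevalonate pathway, Nsdhl (449 to 769) and Cyp51 (305 to 509), which demethylate sterols, and Insig1 (505 to 766), the sensor protein that is itself a sterol-regulated gene. Fatty acid synthase, Fasn, was 586 to 646 and acetyl-CoA carboxylase, Acaca, 181 to 169.8, both picked as contrasts after their values were seen. On the same list Me1 was 220 to 309, and Acss2 went from the floor to 30.5. Acss2 is counted among the 25 above 0 and the 9 past 1.5-fold. It entered through the NS 24 h array alone and could only be higher, and with a floor of 40 its log2 ratio was 0. Genes of sterol and of fatty acid synthesis were not compared as groups.

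The sets connected with growth leaned to the lower side. For comparison, 3827 of all 8198 genes were below 0 and 4370 above. Of 27 genes of ribosome biogenesis and MYC targets 23 were below 0, with a median of -0.24, of 21 cytosolic ribosomal proteins 18 were below 0, with a median of -0.10, and Myc itself was 341 to 315. Each gene's difference was small, and only Rrs1, a ribosome assembly factor, was 1.5-fold lower (126 to 79.0). Of 33 genes of DNA replication 24 were below 0 (median -0.13), for example Dtl, which marks Cdt1 for degradation in S phase (125 to 87.4), and Tyms, thymidylate synthase (156 to 112). Genes of G2 and mitosis leaned upward instead, with 29 of 34 above 0 (median 0.10), such as Nusap1, a spindle protein (106 to 154), and Cenpa, the centromeric histone (99.1 to 139). The 14 housekeeping genes had a median of 0.06, and none of the lists for replication, mitosis, ribosomal proteins, respiratory chain or proteasome held a gene past 1.5-fold.

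Few genes were clearly lower after 24 h. Acot2, a mitochondrial thioesterase of acyl-CoA, had 435 at 6 h and 157 at 24 h, the lowest ratio of all (2.76-fold lower, log2 -1.47), and 431 and 275 with OSM. Fam171b had 232 at 6 h and 102 at 24 h (2.28-fold lower) and 156 and 77.9 with OSM. The others past 2-fold were Ppbp, given above, and the RIKEN clone 2410006H16Rik. Just outside the threshold lay Ddit3, or CHOP, a transcription factor of the integrated stress response, with 80.2 at 6 h and 41.4 at 24 h (1.94-fold lower) and 72.2 and 49.8 with OSM. Trib3, a pseudokinase and a target of CHOP, had 177 at 6 h and 95.5 at 24 h (1.85-fold lower) and 195 and 122 with OSM. On the list of that response 19 of 28 genes were below 0 (median -0.16), against 3827 of all 8198 genes. Among the 19 were Nupr1 (107 to 72.3), Atf5 (68.5 to 48.7) and the amino acid transporter Slc7a5 (744 to 516). Ddit4 and Slc7a11, the cystine transporter (197 to 326), were higher.

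Txnip, which restrains glucose uptake and thioredoxin, had 106 at 6 h and 56.4 at 24 h (1.89-fold lower) and 95.5 and 30.4 with OSM, where its log2 ratio was -1.65. Both pairs thus showed it lower at 24 h, by more with OSM. Gpx1, a glutathione peroxidase, had 172 at 6 h and 101 at 24 h, Lyrm4, a factor of iron-sulphur cluster assembly, 104 at 6 h and 55.3 at 24 h, and Ncam1, a neural adhesion molecule, 147 at 6 h and 84.8 at 24 h. The zinc importer Slc39a4 had 50.5 at 6 h and 129.9 at 24 h (2.58-fold higher). Its relative Slc39a10, picked as a contrast after its values were seen, had 39.5 at 6 h and 24.1 at 24 h (1.64-fold lower). Both values of Slc39a10 are under 40 and have no order with a floor of 40. Zinc importers were not compared as a group. Among the 54 genes lower by 1.5-fold, a look over their names after the values were known found 8 that act in the making, modification or charging of rRNA and tRNA. They were Mettl1, a tRNA methyltransferase (47.3 to 27.3), Nol6 (226 to 145), Cd3eap, a subunit of RNA polymerase I (106 to 68.3), Rpp40 of RNase P, Elac2, Mrm3, Wars and Rrs1. A further 3, Snhg1, Snhg4 and Snhg12, host small nucleolar RNAs. These groups were picked from the outcome, and no count of them beyond the 54 was made.

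**Figure D4:**
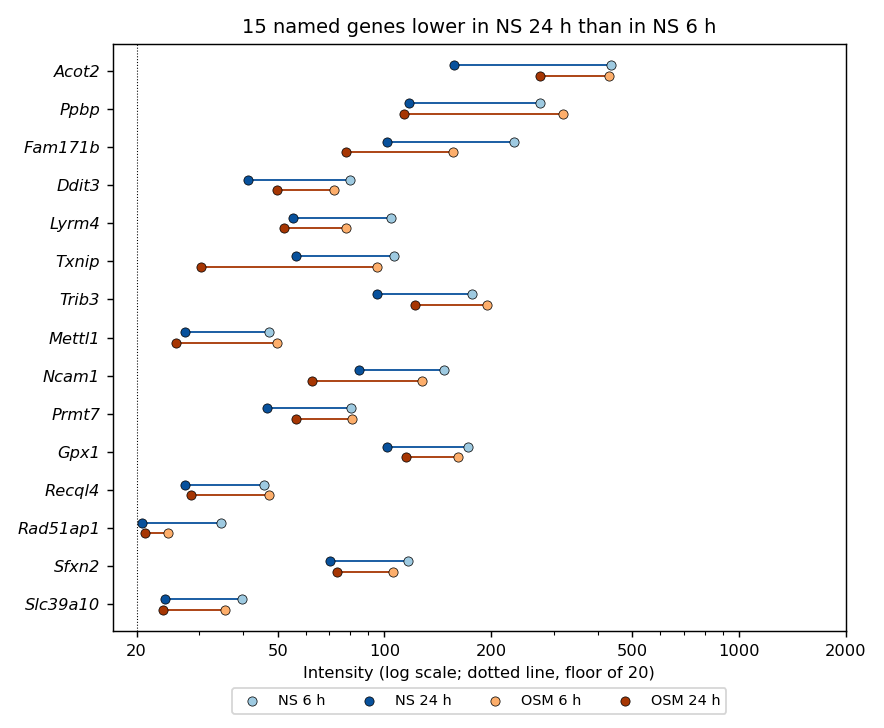
Intensities (horizontal, log scale) of 15 genes lower in NS 24 h than in NS 6 h, 1 point per array. They are the genes with the lowest ratios that the naming rule kept, except that Slc39a10 is drawn in place of Snhg4. NS 6 h is light blue, NS 24 h dark blue, OSM 6 h light orange and OSM 24 h dark orange. In all 15 the NS 24 h point lies left of the NS 6 h point, and in all 15 the OSM 24 h point lies left of the OSM 6 h point, with Txnip and Ppbp showing the widest gaps with OSM.

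Of the 60 higher genes, 29 were on none of the 46 lists. Neurl3 had 84.8 at 6 h and 293 at 24 h (3.45-fold) and 71.5 and 92.8 with OSM. Cd34, a sialomucin that in mouse skin marks stem cells of the hair follicle, had 29.7 at 6 h and 96.6 at 24 h (3.25-fold), and Rgs16, which shortens signalling by G proteins, had 70.2 at 6 h and 226 at 24 h (3.23-fold). Nppb, the precursor of a natriuretic peptide, had 60.2 at 6 h and 175 at 24 h (2.91-fold) and 94.9 and 219.6 with OSM. Vegfc, the growth factor of lymphatic vessels, which is on a list, had 37.0 at 6 h and 97.4 at 24 h (2.63-fold) and 31.9 and 50.5 with OSM. Pglyrp3, which binds bacterial peptidoglycan, had 107 at 6 h and 232 at 24 h. Slpi, an inhibitor of leukocyte elastase and on the list of antimicrobial proteins, went from the floor to 48.2 (log2 0.27 with a floor of 40), while of the 18 genes of that list with a probe set 3 were above the floor, the others being S100a7a (36.4 to 28.4) and Lcn2 (20 to 20.7), with a median of 0.05. Bhlhe40, a repressor within the circadian clock, had 48.3 at 6 h and 126 at 24 h (2.61-fold), the only one of 10 clock genes past 1.5-fold upward, while Arntl was 106 to 152, Per1 41.5 to 54.2, Clock 339 to 297, and Ciart 53.5 to 35.2, the last being 1.5-fold lower.

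Genes of interferon and antigen presentation had ratios above 0 in the NS pair. Ifitm3, an antiviral membrane protein, had 399.6 at 6 h and 813 at 24 h (2.03-fold) and 582 and 690.5 with OSM. Bst2, or tetherin, had 94.8 at 6 h and 145 at 24 h (1.52-fold) and 125 and 107 with OSM, and Tapbp, which loads peptides on MHC class I, had 184 at 6 h and 291 at 24 h (1.58-fold) and 212 and 237 with OSM. Psmb10, a subunit of the immunoproteasome, had 52.5 at 6 h and 78.3 at 24 h and 66.2 and 53.3 with OSM. All 8 interferon-stimulated genes above the floor were above 0 (1 of them past 2-fold, median 0.46), and so were all 9 genes of MHC class I presentation (1 past 2-fold, median 0.33). Among all 8198 genes, 4370 were above 0 and 0.732% past 2-fold. The MHC gene past 2-fold, H2-T23, was at the floor at 6 h. The medians of these 2 lists over the OSM pair were 0.09 and -0.11. Another 20 interferon-stimulated genes, Isg15 and Mx1 among them, were at the floor on both NS arrays.

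The pair of OSM arrays, which shares no array with the NS pair, gives the same span of time with cytokine present. There 18 genes (0.221% of 8161) were 2-fold or more higher at 24 h and 4 (0.049%) lower. The higher lists had 9 genes in common, 15% of the NS list and 50% of the OSM list, and the lower lists shared 2. Of the 60 genes higher without cytokine, 33 were at least 1.5-fold higher with it (1.89% of all genes of the OSM pair were), 23 lay between equal and 1.5-fold, 3 (Cbr2, Prkar2b and Tmem176b) were at or below equal, and 1, Csf2, was at the floor on both OSM arrays and has no ratio there. The median log2 ratio of the 60 was 1.22 in the NS pair, which chose them, and 0.64 in the OSM pair, where the median of all genes was 0.03. For this OSM median of the 60, Csf2 was taken at 0. Across the 8056 genes compared in both pairs the log2 ratios had a Pearson correlation of 0.63 and a Spearman correlation of 0.59, over genes, which are not independent of one another and come from 1 normalized set of 4 arrays. Of the 54 genes lower by 1.5-fold, 51 were below 0 in the OSM pair, as were 43.3% of all genes of that pair.

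The order of the arrays was alike for most of the 60. In 56 of them the NS 6 h array was the lowest of the 4, in 46 the NS 24 h array was the highest, and in 42 both OSM arrays lay between the NS arrays. Of the 49 that were above the floor on all 4 arrays, 47 had the larger ratio without OSM and 2, Il24 and U90926, with it. Csf3, at the floor on both 6 h arrays, has a bound in either pair and was not ordered. A gene chosen for a high NS ratio is more likely to have these extremes and the larger ratio in the NS pair, so the counts describe the choice as well. Across all 8056 genes compared in both pairs, 12 had a ratio larger by 2-fold or more without OSM and 3 with it. Of the 60, 10 had a ratio that was larger by 2-fold or more without OSM, Csf2 and Tslp by values at the floor. Csf2, at the floor on both OSM arrays, was taken at an OSM log2 ratio of 0 here and is not among the 8056 genes. Those 10 were Csf2, Cxcl1, Neurl3, Tslp, Gpc4, Cbr2, Prkar2b, Tmem176b, Acpp and 9930111J21Rik2. Gpc4, a heparan sulphate proteoglycan, had 55.3 at 6 h and 129 at 24 h without and 53.6 and 58.1 with OSM, and Cbr2, a carbonyl reductase, 191 at 6 h and 445 at 24 h without and 266 and 265 with OSM.

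**Figure D5:**
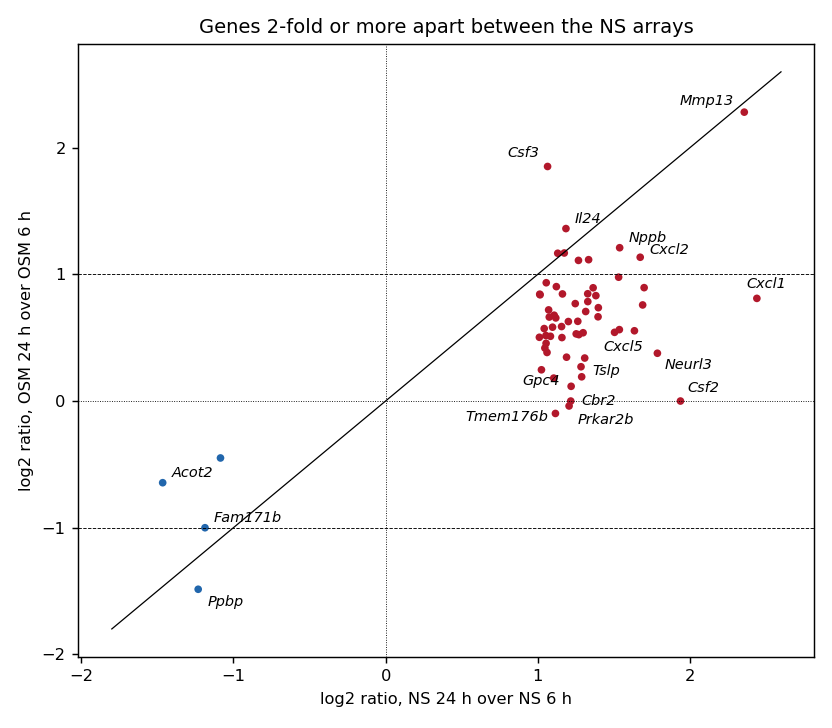
Log2 ratios of the OSM pair, 24 h over 6 h (vertical), against those of the NS pair (horizontal) for the 60 higher (red) and 4 lower (blue) genes of the NS pair, with equal ratios on the solid line. Red points lie mostly below the line, with Csf3 (a bound in both pairs) and Il24 above it, Csf2, at the floor on both OSM arrays, drawn at 0 on the vertical axis, and all 4 blue points below 0 in both pairs.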

How the data were processed

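RNA from 4 PDVC57 cultures was hybridised to Affymetrix mouse arrays, 1 per condition. The authors deposited 1 linear intensity per probe set and array, with 20 as the lowest value. Affymetrix Expression Console is the tool in the submitters' processing notes, while its version, summary method and normalization are not given in sources used here. The published article that cites the arrays describes human arrays, so its methods do not cover these values. Platform annotation in GEO paired 23521 probe sets with 1 gene, 1820 with several and 16004 with none, and 23328 of the first had their gene identifier in RefSeq's table for GRCm38.p6. The brightest probe set by mean over the 4 arrays was kept per gene, and 1082 genes had several.

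Log2 ratios of NS 24 h over NS 6 h were taken for genes above the floor on either array and counted at 2-fold, with no test, in Python 3.11.15 (numpy 2.4.6, pandas 2.3.3). The ratio and counting steps were tested on simulated data with little noise and with changes planted in bright genes only. Folds from the floor were not covered by it. Alternative settings were a floor of 40, repeated quantile normalization and cyclic loess (limma 3.58.1 in R 4.3.3), centring, the mean of probe sets, genes above the floor on both arrays, and thresholds of 1.5-fold and 3-fold. Genes were named if past 2-fold, among the 30 highest or 15 lowest ratios, or among the 6 largest absolute ratios of a list, with all clock and NF-κB genes above the floor. Predicted genes, RIKEN clones, small RNA genes, receptor gene segments and pseudogenes were left out of this rule, and a few others are named as contrasts, chosen after their values were seen. List medians use members above the floor on either NS array, with those at the floor on one at their bound. A member at the floor on the NS 6 h array entered through the NS 24 h array and could only count as higher. The members and the 46 lists were chosen with earlier results of these data known. Promoters and their coordinates are those of RefSeq for GRCm38.p6, and the deposited values name no build. Precision is limited by the number of arrays.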

Additional observations from a re-analysis of the deposited data

Results flagged for a closer look

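Genes higher at 24 h without cytokine whose ratio had the opposite sign with OSM are listed here. The difference between the pairs was not tested, as each side is 1 array. Prkar2b, a regulatory subunit of protein kinase A, had 39.1 at 6 h and 90.1 at 24 h without and 45.5 and 44.3 with OSM, a log2 ratio of 1.21 against -0.039. Tmem176b had 40.8 at 6 h and 88.5 at 24 h without and 55.1 and 51.5 with OSM, 1.12 against -0.0982. Cbr2, whose values are given above, had 1.22 against -0.000166, which is equal intensity on both OSM arrays for practical purposes.

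Probe sets without a single gene were not part of the comparison. Of 2709 probe sets above the floor that are paired with no gene, 23 (0.849%) were 2-fold or more higher at 24 h and 15 (0.554%) lower, and of 554 paired with several genes 2 (0.361%) were higher and 0 lower. A single unnamed probe set stood apart from all others: it was at the floor on the NS 6 h array and read 1094 on OSM 6 h, 1146 on NS 24 h and 918 on OSM 24 h, at least 57.3-fold higher in NS 24 h than in NS 6 h. The next highest log2 ratio among unnamed probe sets was 1.66. The NS 6 h array is the single array at the floor here.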

How the results depend on the processing

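The count of 60 genes 2-fold or more higher at 24 h was 49 or more under repeated quantile normalization (58), cyclic loess (57), centring of each array (54), averaging of probe sets (58), a demand that both NS arrays exceed the floor (49) and removal of predicted, RIKEN and small RNA genes (57), all of them members of the 60. With a floor of 40 it was 38, since values under 40 then have no order. With a threshold of 1.5-fold it was 235 and with 3-fold 8. The count of 4 lower genes was 4 or 5 under the other settings, 3 without RIKEN and similar genes, 54 at 1.5-fold and 0 at 3-fold. Of 307 named genes and the 46 list medians, the signs changed only for values near 0 (Nfkbib, Bmpr1a and the proteasome median, with repeated normalization or centring), apart from ratios set to 0 by the floor of 40. With the mean of probe sets 11 of the 307 genes moved by over 1 SD of all ratios. The log2 ratio of Csf2 was then 0.97 instead of 1.94, of Ccn2 0.36 instead of 0.73 and of Ereg 0.38 instead of 0.76. Slc7a11 had 0.36 instead of 0.72, Tapbp 0.33 instead of 0.66, Il1rap 0.20 instead of 0.59 and Lyrm4 -0.47 instead of -0.92. With the floor of 40, 56 of the 307 genes moved by over 1 SD of all ratios. The scalings moved named genes by at most 0.0492 on the log2 scale.

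No paired analysis was possible because each condition has 1 array and the labels give no replicate numbers, and for the same reason no analysis without 1 array was made. The floor limits the values too: 13982 genes were at it on both NS arrays, and a fold from it is a lower bound.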

Other observations

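Some gene groups not yet described are given here with their values. Of 18 immediate early and AP-1 genes above the floor, 16 were above 0, 4 at least 1.5-fold and 0 at least 2-fold higher, with a median log2 ratio of 0.40 against 0.02 over all genes. Maff, at the floor at 6 h and at 27.6 at 24 h, is counted among the 16 and could only be above 0. Among all 8198 genes, 4370 were above 0, 2.87% at least 1.5-fold and 0.732% at least 2-fold higher. Ier3, a survival gene induced by many stimuli, had 529 at 6 h and 890.5 at 24 h, Jun, an AP-1 subunit, 89.5 at 6 h and 136 at 24 h, and Zfp36, which destabilizes mRNAs of cytokines, 27.7 at 6 h and 42.6 at 24 h. Klf4, a factor of the epidermal barrier, went the other way (68.2 to 52.8). All 13 genes of MAP kinase feedback were above 0 (median 0.29), led by Lrig1, an inhibitor of ErbB receptors (164 to 302), and Spry1, an inhibitor of receptor kinases (28.2 to 48.5). Of the ligands of the EGF receptor, Ereg had 65.5 at 6 h and 111 at 24 h and Hbegf 171 at 6 h and 239 at 24 h. A gene of growth factor withdrawal, Fbxo32, which encodes a ubiquitin ligase of muscle wasting, had 51.0 at 6 h and 89.5 at 24 h and 44.0 and 48.8 with OSM. Of the 20 genes above the floor on its list, of FoxO targets and growth factor withdrawal, 15 were above 0, 0 were 2-fold and 2 at least 1.5-fold higher and 1, Txnip, 1.5-fold lower, with a median of 0.24. The 29 lysosomal and autophagy genes had a median of 0.16, with 24 above 0.

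All 4 replication-dependent histone genes above the floor had higher intensities at 24 h, with log2 ratios between 0.29 and 0.49, while their median over the OSM pair was -0.02. H2bc3 had 104 at 6 h and 146 at 24 h and 75.6 and 77.2 with OSM, and the list of 24 such genes had 8 with a probe set of their own.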
